A study of Mus musculus with 16 samples.

Results

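The 9 genes described here carry the retinoic acid pathway from retinol uptake to the nuclear receptors: Stra6, Rbp4, Crabp1, Crabp2, Aldh1a2, Dhrs3, Cyp26b1, Rara and Rarb. They were taken by gene symbol from a count table of 46320 genes, and the set was formed around Stra6 because its reads in axonal RNA came almost entirely from knockout motoneurons. That genotype contrast in axons is therefore given as a description without a test, and Stra6 is described without a test throughout. In the somatodendritic compartment Stra6 had reads in every library of both genotypes, so its reads were not particular to knockout axons across the whole dataset. The 8 other genes were tested in the comparisons that did not serve to choose the set.

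Motoneurons were enriched by p75NTR panning from lumbar spinal cord of embryonic day 13 mice and grown in microfluidic chambers, whose narrow channels let axons but not cell bodies pass into a further compartment. Polyadenylated RNA of the somatodendritic and of the axonal compartment was sequenced from wildtype (WT, +/+) motoneurons and from motoneurons of mice in which Cas9 was used to delete Hnrnpr exons 1 to 5 (KO, Hnrnpr-/-), which removes the RNA-binding protein hnRNP R. Each of the 4 groups, WT somatodendritic, KO somatodendritic, WT axonal and KO axonal, had 4 libraries. All chambers received medium with 2% B27 and 2% horse serum and 5 ng/ml CNTF on both sides, and 20 ng/ml BDNF on the axonal side only, so the compartments differed in BDNF in both genotypes. The axonal samples were also amplified from less RNA, with a larger reaction volume and more PCR cycles, and this difference and the compartment cannot be told apart. p-values measure the spread between these libraries.

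Retinol travels in blood bound to retinol-binding protein 4, the product of Rbp4, and enters cells through the membrane receptor Stra6. Inside the cell it is oxidized to retinal and then, by retinaldehyde dehydrogenases such as Aldh1a2, to retinoic acid, while Dhrs3 reduces retinal back to retinol and Cyp26b1 oxidizes retinoic acid to inactive products. Crabp1 and Crabp2 bind retinoic acid in the cytoplasm, and Rara and Rarb encode nuclear receptors that act with retinoid X receptors on response elements in DNA. In the developing spinal cord retinoic acid from somites and meninges patterns neuronal types, and motoneurons of the limb levels are themselves a known source. B27 supplement and serum contain retinoids.

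The best-known response element is a direct repeat of a 6-base core with 5 or 2 bases between the copies. RefSeq promoter sequences (GRCm38.p6, from 250 bases before to 50 after the start site, 300 in all) were searched on both strands for AGGTCA or AGTTCA or GGGTCA or GGTTCA followed in the same direction by any of these 4. Of the 9 genes, 8 had a promoter in the table, and Rarb alone held a match; of 38 other pathway genes, 30 had a promoter and Cyp26a1 alone held a match. Both matches have the spacing of 5 bases, which was found in 0.0974% of 32851 promoters, whereas the spacing of 2 was found in 0.268%. The matches are shown because Rarb is both a receptor and a textbook retinoic acid target, with the core copies in capitals.
Rarb: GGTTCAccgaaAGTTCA
Cyp26a1: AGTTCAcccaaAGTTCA
The Rarb match reads on the promoter strand and begins 53 bases before the start site, at offset -53, in the window chr14:16575427-16575726 (minus strand). The Cyp26a1 match reads on the strand opposite to the gene and lies at offset -32 in the window chr19:37697558-37697857 (plus strand). A match is a description of the sequence only.

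Total counts were between 22024923 and 34864151 per library. Levels are given as CPM (counts per 1000000 counted reads), scaled by TMM factors, which adjust library sizes for composition, and all 9 genes passed the expression filter that left 19964 genes. Hnrnpr itself had 178 to 241 CPM in WT and 0.545 to 1.16 CPM in KO somatodendritic libraries, and 120 to 422 CPM in WT and 0.597 to 1.1 CPM in KO axonal libraries, as the labels state. WT axonal replicate 2 stood apart, with the 422 CPM of Hnrnpr, the highest sum of nuclear RNAs (2540 CPM) and the fewest genes with a read (23490), and values without it are given where they change a call. Of 9 motoneuron markers, 7 had reads in every somatodendritic library, among them Isl1 (83 to 194 reads), Slc18a3 (83 to 303), Lhx3 (83 to 173), Ngfr (75 to 195) and Chat (14 to 31); Mnx1 had no read there and Isl2 at most 5. In axonal libraries Chat had 0 to 8 reads. The summed motoneuron markers ranged from 21.7 to 39.2 CPM in somatodendritic RNA and from 3.39 to 17.7 CPM in axonal RNA. In the same order, 6 pericyte or smooth muscle markers, led by Acta2, summed to 61.8 to 412 CPM and to 1000 to 9870 CPM. Of these 6, Notch3, Abcc9 and Kcnj8 had lower means in axons of both genotypes, so the list did not rise as a whole. Fibroblast or meningeal markers summed to 124 to 1620 CPM in axonal and 128 to 1340 CPM in somatodendritic libraries, so transcripts of other cell types were present in both compartments; in such bulk samples, fewer cells of a type and less RNA per cell cannot be told apart.

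Stra6 (chr9:57971076-58061287, GRCm39, plus strand) gave 31, 19, 20 and 15 reads in the WT somatodendritic libraries and 26, 22, 16 and 53 in the KO somatodendritic libraries, in the order of replicates 1 to 4. In WT axons the counts were 0, 0, 1 and 0, and in KO axons 23, 13, 37 and 0. The WT axonal libraries thus stood apart from all 8 somatodendritic libraries, and KO axons ranged from none, in replicate 4, to a count within the somatodendritic range. The mean levels were 0.831 ± 0.0959 CPM in WT and 1.24 ± 0.708 CPM in KO somatodendritic libraries, and 0.00812 ± 0.0162 CPM in WT and 0.546 ± 0.466 CPM in KO axons (SD, n = 4 each). In the order KO somatodendritic, WT somatodendritic, KO axonal, WT axonal, the ranges of each pair of neighbours overlapped.

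Over the summed libraries, 73 Stra6 reads in KO axons, 37 of them from replicate 3, stood against 1 in WT axons, which are the counts that chose the gene. The ratio of WT somatodendritic to WT axonal reads, 85 against 1, was 109 per sequenced read (95% counting interval 19.1 to 4370), and it rests on the same single WT axonal read. For KO the ratio of somatodendritic to axonal reads, 117 against 73, was 2.2 (1.63 to 3.0). These intervals cover counting error only and not the spread between libraries, which for KO axons ran from 0 to 37 reads. At the somatodendritic rate of its genotype, each WT axonal library would have held 24.8 to 31.2 reads and each KO axonal library 37.3 to 42.6. These counts take reads as independent draws, whereas Aldh1a2, with 1 read in WT axonal replicate 2 and at least 438 in the other WT axonal libraries, varied by far more than counting error. A library with no read allows up to 3 counts, or 0.0811 to 0.102 CPM in the axonal libraries.

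**Figure D1:**
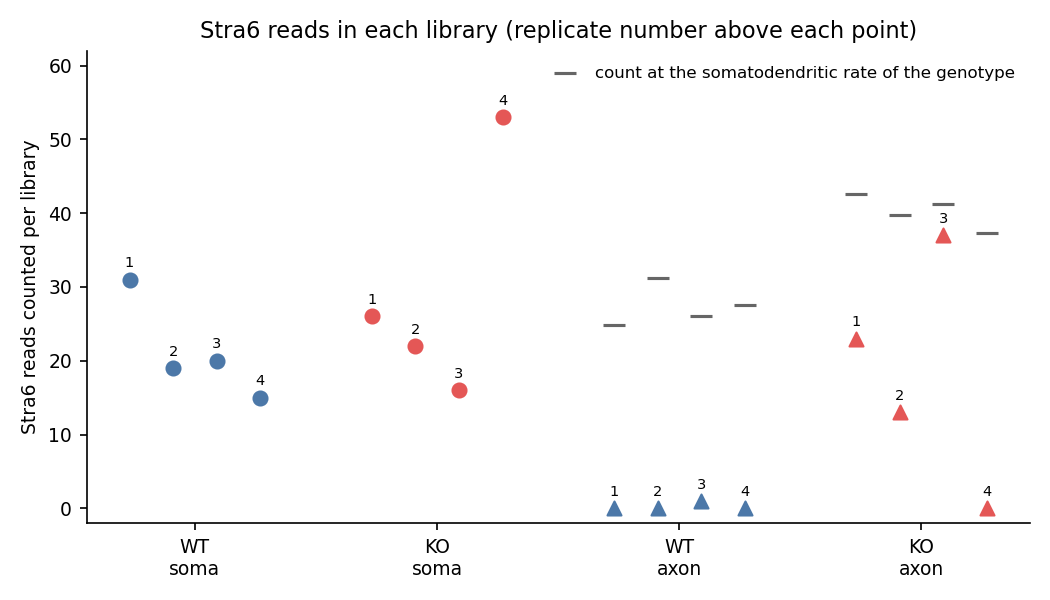
Stra6 reads counted in each of the 16 libraries (vertical axis) by group, with the replicate number above each point; grey dashes mark the count that each axonal library would have at the somatodendritic rate of its genotype. WT axons hold 0 or 1 read, KO axons 0 to 37 and somatodendritic libraries 15 to 53.

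Among the 19964 genes tested, Stra6 was the only gene with at least 10 counts in 3 or more KO axonal libraries and at most 1 read over all WT axonal libraries, and 0 genes met the reverse criterion. This criterion restates how Stra6 came to be chosen and is a description. No summed list of 11 cell type and RNA marker lists was set apart between KO and WT axons, with exact two-sided permutation p from 0.143 to 1 for 4 against 4 libraries, where 0.0286 is the smallest possible. KO axonal replicate 4, without Stra6 reads, had the highest sums among KO axons of fibroblast or meningeal markers (1600 CPM) and microglial markers (149 CPM). Its sums of motoneuron (13.2 CPM), oligodendroglia or Schwann (1330 CPM) and erythroid markers (3.48 CPM) were also the highest. Its sums of endothelial markers (22 CPM) and nuclear RNAs (606 CPM) were the lowest. The 5 endothelial markers summed to 24.6 to 58.1 CPM in WT and 22 to 68.5 CPM in KO axons, nearly all of it from Kdr, with 715 to 1888 reads in WT and 652 to 2354 in KO axons. Cldn5 and Cdh5 had 0 reads in WT axons and at most 5 in a KO axonal library, and Pecam1 had 3 to 30.5 reads in WT and 0 to 34 in KO axons. Tek, an endothelial receptor, had 0 to 3 reads in WT axons, with 3 libraries at 0, and 0 to 18 reads in KO axons, with 1 library at 0, a pattern like that of Stra6. The part of these cell types in the Stra6 counts was not tested.

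Stra6 overlaps Ccdc33 (chr9:57935956-58026106), which lies on the opposite strand and shares 0 exonic bases with it in GENCODE. The kit used for the cDNA does not mark strand, so reads of such a pair cannot be assigned by strand. Ccdc33 had at most 13.5 reads in a library and 0 in every KO axonal library, and its part in the Stra6 counts was not tested. The gene that follows, Islr, is expressed by fibroblasts and had 85 to 729 reads in WT and 159 to 660 in KO axons, and its axonal groups overlapped. By Pearson correlation of log2(CPM + 1) across the 16 libraries, the genes most like Stra6 were Smyd5 (r = 0.933), Dlk2 (0.866), N4bp3 (0.862), 4930594M22Rik (0.856) and Slc2a3 (0.842). All 5 had their mean levels in the order KO somatodendritic, WT somatodendritic, KO axonal, WT axonal. Smyd5 had at least 59.2 CPM in WT axons and 65.8 to 91.9 CPM in KO axons, and unlike Stra6 none of the 5 was near 0 in WT axons. The libraries share compartments and preparation, and the correlation describes likeness only.

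Between compartments, the cytoplasmic binding protein Crabp1, the degrading enzyme Cyp26b1 and the receptor Rarb were lower in axons of both genotypes, whereas the receptor Rara was higher in WT axons. In WT motoneurons edgeR called 1 of the 8 tested genes higher and 3 lower, beside 57.5% of all genes called in either direction, 30.1% higher and 27.4% lower. In KO motoneurons it called 0 higher and 3 lower, beside 54.2% of all genes, 27.5% higher and 26.8% lower. The share of the 8 genes called was thus no higher than the background in either genotype. The median log2 fold change of the 8 genes was 0.3 in WT and -0.47 in KO, beside 0.07 and 0 over all genes.

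**Figure D2:**
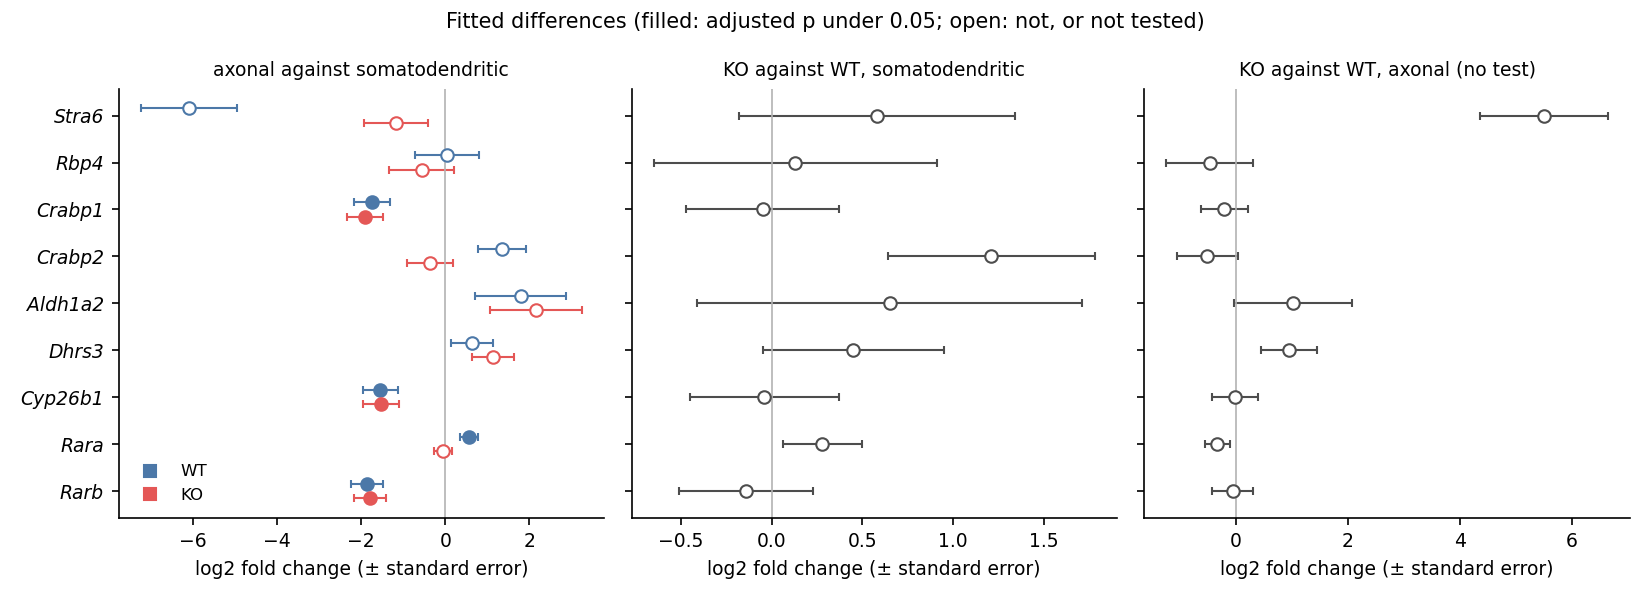
Fitted log2 fold change with its standard error (horizontal axis) for the 9 genes in the axonal against somatodendritic comparison of each genotype (left) and in KO against WT in the somatodendritic (middle) and axonal (right) compartments; filled points have an adjusted p under 0.05. Crabp1, Cyp26b1 and Rarb lie between -1.90 and -1.53 in both genotypes on the left; the fitted Stra6 values against WT axons depend on the small count that the fit adds, since those libraries hold 1 read.

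Rbp4 (chr19:38105068-38113769), which encodes the carrier that Stra6 binds, was barely detected. It had 21, 5, 8 and 9 reads in WT and 0, 14, 19 and 9 in KO somatodendritic libraries. In WT axons it had 6, 16, 13 and 20 reads and in KO axons 17, 5, 3 and 14. All groups overlapped, and in edgeR the log2 fold change between compartments was 0.04 (SE 0.77, adjusted p = 0.968) in WT and -0.56 in KO, where it did not pass either.

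Aldh1a2 (chr9:71123071-71203525), the main retinoic acid synthesizing enzyme of the embryo, varied widely between libraries. It had 168, 69, 254 and 47 reads in WT and 76, 67, 490 and 146 in KO somatodendritic libraries. The axonal counts were 651, 1, 438 and 1177 in WT and 761, 219, 2343 and 1429 in KO. Every axonal library except WT replicate 2 thus exceeded the median of its somatodendritic group, and the groups overlapped in both genotypes. The mean level was 5.22 ± 3.73 CPM in the somatodendritic compartment and 18.1 ± 15 CPM in the axons of WT, and 8.2 ± 8.36 and 36.7 ± 28 CPM in those of KO (SD, n = 4). Neither difference passed the test, with a log2 fold change of 1.79 (SE 1.08, edgeR adjusted p = 0.168) in WT and 2.16 (SE 1.09, adjusted p = 0.106) in KO. Without WT axonal replicate 2 the WT value was 2.20 and passed (adjusted p = 0.0289), and without KO somatodendritic replicate 3 the KO value was 3.15 and passed (adjusted p = 0.0471).

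Aldh1a2 is also a marker of meninges, and 10 fibroblast or meningeal markers were summed beside it. WT axonal replicate 2, with 1 Aldh1a2 read, had the lowest marker sum of all libraries at 124 CPM, while WT axonal replicate 4, with 36.0 CPM of Aldh1a2, had the highest at 1620 CPM. KO axonal replicate 3 had the highest Aldh1a2 level, 70.3 CPM, at a marker sum of 604 CPM, so the order was not the same throughout. All 10 markers had a read in each KO somatodendritic library, and 8 of 10 in every axonal library of either genotype. The genes most like Aldh1a2 across libraries were Arnt (r = 0.931), Ext2 (0.93) and Ptgis (0.927). The part of fibroblast or meningeal RNA in the Aldh1a2 level was not tested.

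**Figure D3:**
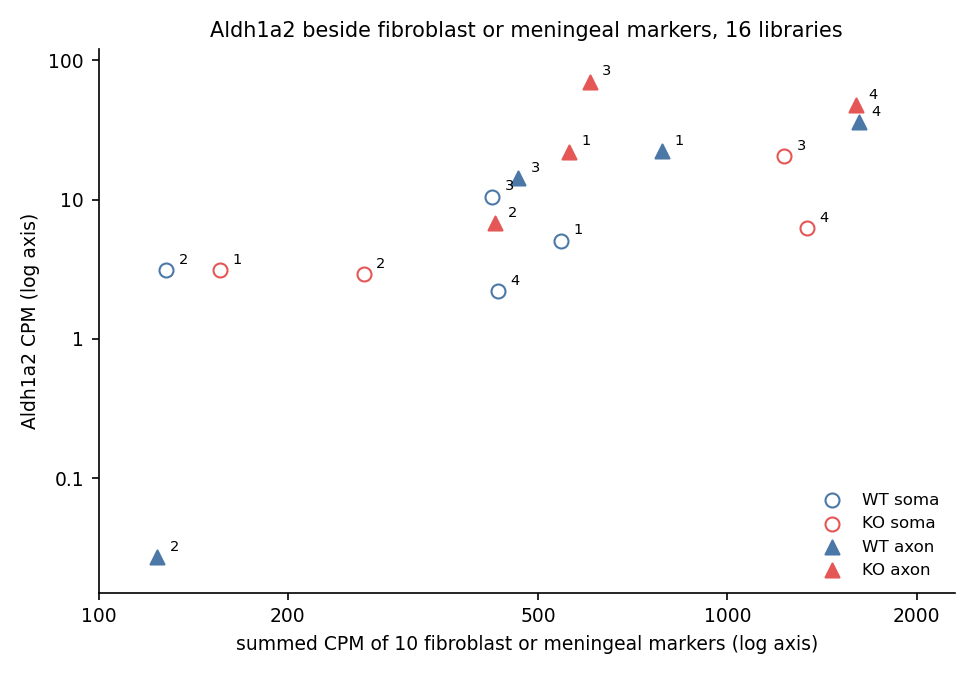
Aldh1a2 level in CPM (vertical log axis) against the summed CPM of 10 fibroblast or meningeal markers (horizontal log axis) in the 16 libraries, with the replicate number beside each point; circles are somatodendritic and triangles axonal. WT axonal replicate 2 lies at the lower left with 0.027 CPM, and KO axonal replicate 3 is highest with 70.3 CPM.

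Dhrs3 (chr4:144618712-144654779), which reduces retinal and is itself induced by retinoic acid, had 140, 45, 68 and 72 reads in WT and 42, 97, 77 and 183 in KO somatodendritic libraries. In axons it had 180, 214, 135 and 98 reads in WT and 84, 270, 399 and 435 in KO. KO axonal replicate 1 lay below the others of its group and within the somatodendritic range, and the groups overlapped. The log2 fold change between compartments was 0.63 (SE 0.5, edgeR adjusted p = 0.292) in WT and 1.13 (SE 0.5, adjusted p = 0.0678) in KO. The replicate numbers paired the KO compartments, and with the number as a block the KO value was 1.07 and passed (adjusted p = 0.0187). It also passed without KO somatodendritic replicate 4 (1.6, adjusted p = 0.02) or KO axonal replicate 1 (1.44, adjusted p = 0.0102). Dhrs3 overlaps Vps13d on the opposite strand and shares 0 exonic bases with it.

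Cyp26b1 (chr6:84548396-84570890), the retinoic acid degrading enzyme with the most reads of its family here, was lower in axons. Its counts were 657, 560, 548 and 251 in WT and 780, 365, 342 and 358 in KO somatodendritic libraries. In axons they were 146, 289, 188 and 275 in WT and 410, 72, 228 and 177 in KO. The ranges of CPM did not overlap between compartments in either genotype, with 11.8 to 25.2 against 4.97 to 8.41 CPM in WT and 14.3 to 32.1 against 2.24 to 11.9 CPM in KO. The log2 fold change was -1.54 (SE 0.42, edgeR adjusted p = 0.00592) in WT and -1.53 (SE 0.42, adjusted p = 0.00671) in KO. Of its relatives, Cyp26c1 had 0 reads in all 16 libraries and Cyp26a1 had 0 in every WT library, 2 reads in a KO somatodendritic library and 7 and 2 in KO axonal replicates 1 and 3.

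Crabp1 (chr9:54672032-54680394) was the most abundant of the 9 genes and fell in axons. It had 3212, 1870, 2194 and 1351 reads in WT and 1833, 2007, 2255 and 1540 in KO somatodendritic libraries. The axonal counts were 1023, 1589, 300 and 419 in WT and 1286, 703, 536 and 346 in KO. The lowest somatodendritic level, 63.4 CPM, was above the highest axonal level, 43.0 CPM. The log2 fold change was -1.74 (SE 0.43, edgeR adjusted p = 0.00339) in WT and -1.90 (SE 0.43, adjusted p = 0.00229) in KO.

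Crabp2 (chr3:87856000-87860679), which hands retinoic acid to the receptors, was close to the limit of detection. It had 10, 7, 6 and 3 reads in WT and 18, 9, 12 and 17 in KO somatodendritic libraries. In axons it had 12, 45, 10 and 21 reads in WT and 4, 15, 28 and 12 in KO. The WT compartments did not overlap, although narrowly, with at most 0.315 CPM in somatodendritic and at least 0.325 CPM in axonal libraries. The log2 fold change of 1.35 (SE 0.57, edgeR adjusted p = 0.0531) in WT did not pass, and in KO the value was -0.37. The WT value passed without WT axonal replicate 1 (adjusted p = 0.0476) or replicate 3 (adjusted p = 0.0339).

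**Figure D4:**
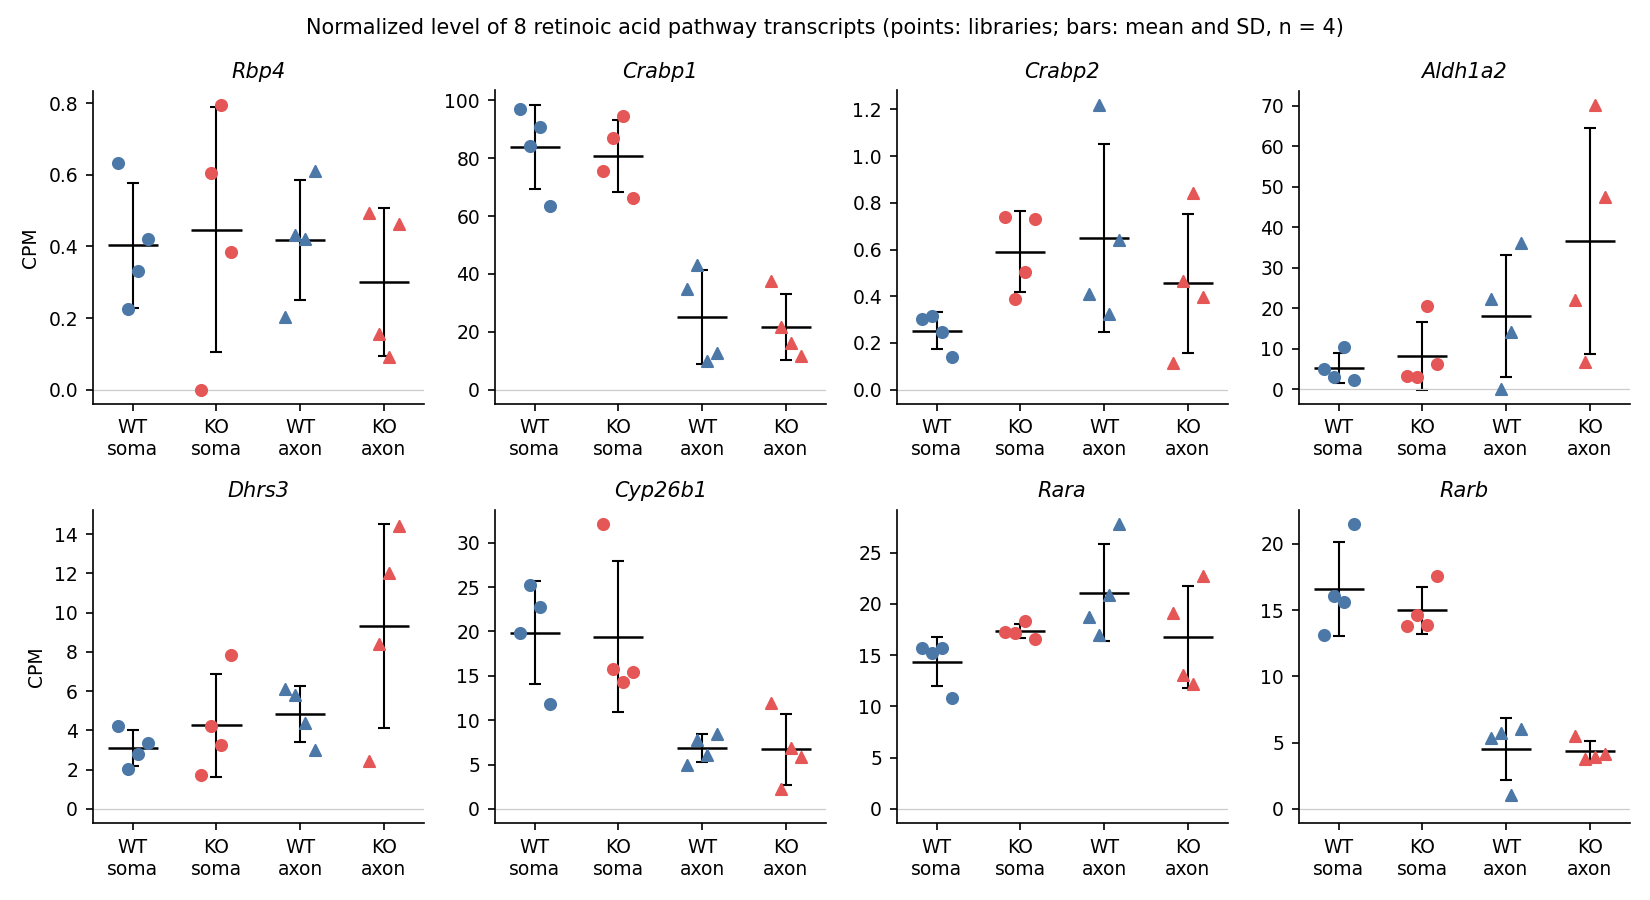
Level in CPM (vertical axes, a separate scale for each gene) of the 8 genes other than Stra6 in the 4 groups; points are libraries, and bars are the mean and SD of 4. Crabp1, Cyp26b1 and Rarb are lower in axons of both genotypes with no overlap, and Aldh1a2 and Dhrs3 spread most in KO axons.

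Rara (chr11:98818626-98865768) had 520, 338, 379 and 230 reads in WT and 421, 398, 436 and 388 in KO somatodendritic libraries. In axons it had 549, 630, 644 and 908 reads in WT and 657, 422, 406 and 684 in KO. In WT the axonal levels, 17.0 to 27.8 CPM, all exceeded the somatodendritic levels, 10.8 to 15.7 CPM, and in KO the ranges overlapped. The log2 fold change was 0.56 (SE 0.22, edgeR adjusted p = 0.0404) in WT and -0.05 in KO, where its sign changed with the scaling. The WT call was lost without WT somatodendritic replicate 4 (0.48, adjusted p = 0.0884) or WT axonal replicate 4 (0.44, adjusted p = 0.0989), and with no expression filter (0.57, adjusted p = 0.0638). Rara shares 157 exonic bases with Gm46294 on the opposite strand, which had at most 8 reads in a library.

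Rarb (chr14:5387365-6038924), whose promoter carries the direct repeat shown above, had 435, 357, 376 and 458 reads in WT and 335, 338, 333 and 410 in KO somatodendritic libraries. The axonal counts were 158, 212, 32 and 196 in WT and 189, 122, 130 and 126 in KO. Somatodendritic levels were 13.1 to 21.5 CPM and axonal levels 1.04 to 6.0 CPM, so the compartments did not overlap in either genotype. The log2 fold change was -1.87 (SE 0.38, edgeR adjusted p = 0.00101) in WT and -1.79 (SE 0.38, adjusted p = 0.0015) in KO. The genes most like Rarb were Cstf2t (r = 0.969), Exoc6 (0.966) and Ldoc1 (0.964), and those most like Crabp1 were Klhl9 (0.977), Gtf2ird2 (0.974) and Asb13 (0.971), all over 16 libraries. Gm46442, which lies within Rarb on the same strand, had at most 27.2 reads in a library, and reads that both share were divided between them.

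Of the 8 tested genes, 3 had axonal CPM ranges entirely below the somatodendritic ones in each genotype, beside 27.6% of all genes in WT and 27.3% in KO. In the upward direction 2 genes, Crabp2 and Rara, had ranges apart in WT, beside 24.8% of all genes, and 0 in KO, beside 24.1%. Summed marker lists were also compared between the compartments, and none passed the adjustment over 44 tests. The exact p of 4 against 4 libraries cannot fall below 0.0286, so a list could pass only if many others also reached that floor. That none passed therefore does not show that the sums were alike.

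The sum of 9 general motoneuron markers had a log2 ratio of axonal to somatodendritic means of -1.70 in WT and -1.58 in KO (exact two-sided permutation p = 0.0286 each, the smallest possible, adjusted p = 0.14). The sum of 5 limb motor column markers was at -0.18 (exact p = 0.629) and -0.24 (exact p = 0.371), with members in opposite directions: in WT the mean of Lhx1 was 88.0 CPM in the somatodendritic compartment and 10.6 CPM in axons, that of Foxp1 33.0 and 81.2 CPM and that of Runx1 0.422 and 11.6 CPM, with the same directions in KO. The pericyte or smooth muscle sum was at 4.66 in WT and 4.67 in KO (exact p = 0.0286 and adjusted p = 0.14 each). Acta2, the smooth muscle actin, carried that sum, with means of 113 CPM in the somatodendritic compartment and 4060 CPM in axons of WT, and 97.4 and 3740 CPM in those of KO. Of the other pericyte or smooth muscle markers, Pdgfrb and Rgs5 had higher means in axons of both genotypes, and Notch3, Abcc9 and Kcnj8 had lower means there, with Notch3 at 31.3 against 15.1 CPM in WT and 27.3 against 13.1 CPM in KO. The choroid plexus sum was at 1.66 in WT and 2.32 in KO (exact p = 0.0286 and adjusted p = 0.14 each), with Ttr and Otx2 at no more than 3 counts over each axonal group. Folr1 carried that sum, with means of 0.244 against 8.3 CPM in WT and 0.169 against 14.7 CPM in KO, while Kl had lower means in axons, 1.82 against 0.0823 CPM in WT and 1.86 against 0.0846 CPM in KO. The astrocyte or radial glia sum was at 1.47 in WT (exact p = 0.0286) and 0.91 in KO (exact p = 0.0571), and its WT mean went from 1160 CPM in the somatodendritic compartment to 3210 CPM in axons. The endothelial sum was at 2.48 in WT (exact p = 0.0286) and 1.72 in KO (exact p = 0.0571), and Kdr alone among its 5 genes had higher means in axons. Nuclear RNAs were at 0.20 in WT (exact p = 0.8) and -0.84 in KO (exact p = 0.0286, adjusted p = 0.14). The 4 remaining lists had an exact p from 0.257 to 1. The part of these cell types and of nuclear RNA in the differences between compartments, of the 9 genes and of the pathway genes described next, was not tested.

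To compare levels between genes, counts were divided by the merged exon length (RPKM). Crabp1 was the highest of the 9 genes in every group, with a mean of 105 ± 18.2 RPKM in WT and 101 ± 15.6 RPKM in KO somatodendritic libraries and 31.3 ± 20.4 and 27 ± 14.1 RPKM in axons (SD, n = 4). Rarb ranked next in somatodendritic libraries at 4.39 ± 0.935 RPKM in WT and 3.97 ± 0.469 RPKM in KO. In axons Aldh1a2 ranked next at 8.0 ± 6.64 RPKM in WT and 16.2 ± 12.4 RPKM in KO. Stra6 was the lowest in every group, with means from 0.00185 RPKM in WT axons to 0.283 RPKM in KO somatodendritic libraries.

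Outside these 9, 38 genes of the pathway are reported, of which 27 passed the filter. The retinoic acid synthesizing genes Aldh1a1, Aldh1a3 and Cyp1b1 were higher in axons of both genotypes, and the nuclear receptor coregulators Ncoa1, Ncoa2, Ncoa3 and Nrip1 were lower. In WT motoneurons 11 of the 27 were higher, 6 lower and 10 did not pass, beside 30.1% of all genes higher and 27.4% lower. In KO motoneurons 8 were higher, 5 lower and 14 did not pass, beside 27.5% and 26.8% of all genes. The called share of the 27 genes was thus close to that of all genes, 57.5% in WT and 54.2% in KO, and these shares apply to each group of genes below. Their median log2 fold change was 0.82 in WT and 0.5 in KO, beside 0.07 and 0 for all genes.

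Beside Aldh1a2, which did not pass in either genotype, 3 of 4 further genes for retinoic acid synthesis passed the filter, and all 3 were higher in axons of both genotypes; Aldh8a1 was not tested. Aldh1a1, a retinaldehyde dehydrogenase, had 0.939 to 1.99 CPM in WT somatodendritic and 13.7 to 19.8 CPM in WT axonal libraries, a log2 fold change of 3.62 (SE 0.38, edgeR adjusted p = 2.1e-05), and in KO the change was 3.23 (SE 0.37). Cyp1b1, a cytochrome P450 that can also oxidize retinol and retinal, changed by 3.66 (SE 0.79) in WT and 2.55 (SE 0.75) in KO, and Aldh1a3 by 2.83 (SE 0.95) and 2.92 (SE 0.95). The Aldh1a1 ranges were apart in both genotypes. The Aldh1a3 calls rested on few libraries: without KO axonal replicate 4 the KO value was 1.24 (adjusted p = 0.191), and the WT call was lost without WT somatodendritic replicate 1 or 2 or WT axonal replicate 3, with adjusted p of at most 0.0567.

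Of 8 tested oxidoreductases acting on retinol and retinal, 4 were higher and 1 lower in WT axons, and 4 were higher in KO axons. Rdh10, which makes retinal from retinol in the embryo, had 6.64 to 10.5 CPM in WT somatodendritic and 22.3 to 62.8 CPM in WT axonal libraries, with a log2 fold change of 2.37 (SE 0.35, edgeR adjusted p = 0.00012) in WT and 1.51 (SE 0.34) in KO. Dhrs4 changed by 2.21 (SE 0.31) in WT and 2.27 (SE 0.31) in KO, Rdh5 by 1.68 (SE 0.37) and 1.07 (SE 0.37), and Adh5 by 0.82 (SE 0.14) in each. Rdh11 was lower in WT axons (-0.62, SE 0.18). The Rdh5 call in KO was lost without KO axonal replicate 2 (adjusted p = 0.0594) or 4 (adjusted p = 0.0679).

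Lrat, which esterifies retinol for storage, had few reads. It had 20, 13, 18 and 10 reads in WT and 17, 7, 12 and 6 in KO somatodendritic libraries. In axons it had 0 reads in every WT library and 0, 0, 3 and 0 in KO, so that, unlike Stra6, it was near 0 in axons of both genotypes. Against a floor of 3 counts in each library it was at least 6.45-fold lower in WT axons than in the somatodendritic compartment. The Stra6 paralog Stra6l changed by 3.08 (SE 0.68, edgeR adjusted p = 0.0016) in WT axons and did not pass in KO. Stra6l had 0.272 to 0.54 CPM in WT somatodendritic and 1.14 to 7.03 CPM in WT axonal libraries, which is the opposite order to Stra6. Ttr, the plasma partner of retinol-binding protein, had 0 reads in WT libraries and at most 4 in a KO library.

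Of 5 receptor coregulators, 4 were lower in axons of each genotype. The coactivator Ncoa1 changed by -1.57 (SE 0.28, edgeR adjusted p = 0.00044) in WT and -1.26 (SE 0.28) in KO. Ncoa2 changed by -1.45 (SE 0.27) and -1.31 (SE 0.26), Ncoa3 by -1.20 (SE 0.20) and -1.22 (SE 0.20), and Nrip1 by -1.06 (SE 0.26) and -1.15 (SE 0.26). The axonal ranges of these 4 were below the somatodendritic ones in both genotypes. Over the 27 genes, ranges were apart upward for 9 and downward for 6 in WT, beside 24.8% and 27.6% of all genes. In KO they were apart upward for 6 and downward for 5, beside 24.1% and 27.3% of all genes. The difference between the genotypes was not called for any of the 27 genes.

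Of 5 further receptors, Ppard was higher in WT axons (1.25, SE 0.41, edgeR adjusted p = 0.0173) and Rarg in KO axons (1.25, SE 0.48, adjusted p = 0.0383). The Ppard call was lost without WT somatodendritic replicate 1 (1.12, adjusted p = 0.0527) or 3 (1.13, adjusted p = 0.0504). The Rarg call was lost when any of 4 libraries was left out, KO somatodendritic replicates 2 and 4 and KO axonal replicates 3 and 4 (adjusted p of at most 0.179). Of the further genes listed as retinoic acid targets, apart from Rarb and Dhrs3 described above, the 2 that were tested were higher in WT axons, Tgm2 by 2.68 (SE 0.92) and Hic1 by 1.24 (SE 0.44), and neither passed in KO, at 1.44 (SE 0.87) and 0.68 (SE 0.44). Leaving out a library gave WT values of 1.78 to 3.79 for Tgm2 and 0.78 to 1.51 for Hic1. Tgm2 and Hic1 were each lost when single libraries were left out, Tgm2 with an adjusted p of up to 0.0975 (WT somatodendritic replicates 1, 2 and 4 and WT axonal replicate 3) and Hic1 of up to 0.115 (WT somatodendritic replicates 2 and 4 and WT axonal replicate 4).

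**Figure D5:**
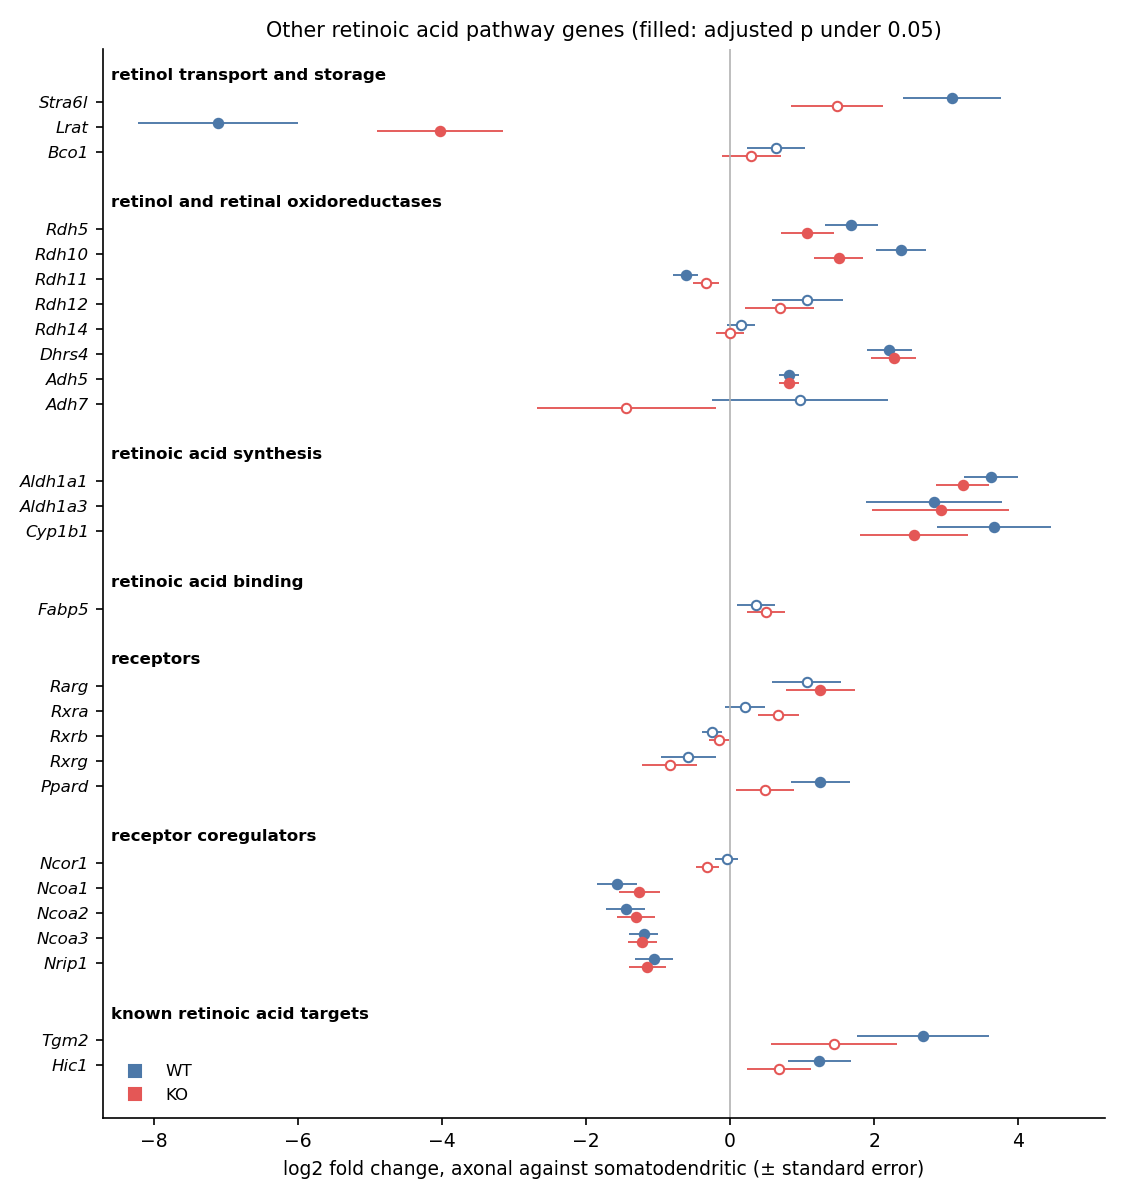
Log2 fold change of axonal against somatodendritic libraries with its standard error (horizontal axis) for 27 other genes of the pathway, grouped by role, in WT (blue) and KO (red); filled points have an adjusted p under 0.05. Genes of retinoic acid synthesis lie to the right and most coregulators to the left in both genotypes; the Lrat values depend on the small count that the fit adds, since WT axons hold 0 reads.

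Loss of hnRNP R was set against WT in the somatodendritic compartment to ask whether the pathway differed by genotype there. 0 of the 8 tested genes and 0 of the 27 other pathway genes passed, beside 0.00501% of all genes, which is Hnrnpr alone. At an unadjusted p under 0.05, edgeR had 120 of all genes and 0 of the 8. Those 120 are fewer than a threshold of 0.05 would pass with no difference at all, so the test was conservative here. That 0 of the 8 passed therefore does not show that their levels were alike. The fit shared its estimate of spread between the compartments, so the larger axonal spread entered these tests. The fitted log2 fold changes of the 8 genes lay between -0.14 for Rarb (SE 0.37) and 1.21 for Crabp2 (SE 0.57). The DESeq2 and limma voom fits likewise called 0 of the 8.

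For 2 of the 8 genes, Crabp2 and Rara, the KO somatodendritic levels were nevertheless all above the WT levels, beside 0.766% of all genes with ranges apart in that direction. Crabp2 had 0.39 to 0.741 CPM in KO and 0.141 to 0.315 CPM in WT, at 3 to 18 reads per library. Rara had 16.6 to 18.3 CPM in KO and 10.8 to 15.7 CPM in WT. In edgeR neither passed, with a log2 fold change of 1.21 (SE 0.57, adjusted p = 1, unadjusted p = 0.0513) for Crabp2 and 0.28 (SE 0.22, adjusted p = 1, unadjusted p = 0.227) for Rara. Without WT somatodendritic replicate 4, which had the lowest level of both genes, the values were 1.04 and 0.18.

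In axons, the contrast in which Stra6 was chosen, the other 8 genes had fitted log2 fold changes of KO against WT between -0.51 for Crabp2 (SE 0.54) and 1.02 for Aldh1a2 (SE 1.05), given without a test. The Crabp2 value was -0.01 without WT axonal replicate 2 and -0.98 without KO axonal replicate 3, and leaving out a library gave 0.5 to 1.6 for Aldh1a2 and -0.82 to -0.16 for Rbp4. Dhrs3 was at 0.95 (SE 0.50), Rara at -0.33 (SE 0.22), Rbp4 at -0.47 (SE 0.77) and Crabp1 at -0.21 (SE 0.42), and Cyp26b1 and Rarb were at -0.02 (SE 0.41) and -0.06 (SE 0.37). All 8 had overlapping axonal ranges between the genotypes, beside 0.306% of all genes with ranges apart upward and 0.301% downward. 0 of the 27 other pathway genes passed, beside 0.01% of all genes called, 2 genes, with 775 at an unadjusted p under 0.05. The difference of the genotype effect between compartments was -0.61 (SE 0.31) for Rara and -1.72 (SE 0.79) for Crabp2, where it moved to -1.22 without WT axonal replicate 2 and -2.20 without KO axonal replicate 3. It is described without a test, and it was called for 0.0% of all genes. Expression varied more between axonal than between somatodendritic libraries, with a common edgeR dispersion of 0.302 against 0.0535. This limits what the comparisons could detect in axons. The fit of all 16 libraries shared its estimate of spread between the compartments. The axonal spread thus also limited its somatodendritic tests, and the standard errors given for axons may be too small.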

How the data were processed

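The deposited values are expected counts made by the authors with featureCounts 1.6.4 from reads aligned with STAR 2.7.2b to the RefSeq annotation of GRCm39; reads with several alignments or genes were divided, which left 19.7% to 22.9% of values not whole. Counting used the reverse-strand setting although the SMART-Seq v4 kit does not mark strand. Per the labels the titles gave genotype, compartment and replicate.

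Counts were rounded to whole numbers. In edgeR 4.0.16 (R 4.3.3), genes were filtered by group, scaled by TMM and fitted with a quasi-likelihood model of 4 group means over all 16 libraries, two-sided, with Benjamini-Hochberg adjustment over 19964 genes and a threshold of 0.05. The procedure was run on simulated counts with set changes. That check required recovery of part of the set changes and of their size, and it set no limit on false calls. Alternatives used DESeq2 1.42.0, limma 3.58.1, other scalings and filters, fewer libraries and the replicate number as a block. Deviations from group means of same-numbered KO compartment libraries correlated in every pair (r from 0.169 to 0.577), whereas WT pairs reached from 0.083 to 0.292, so the number was taken to pair KO compartments only. Between genotypes, same-numbered libraries correlated unevenly, with r from 0.046 to 0.786 in axons and from 0 to 0.47 in somatodendritic libraries. Values are of the fit without a block unless the block is named. Coordinates are GRCm39 as in the table, except promoters (GRCm38.p6).

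The genes and lists were chosen with earlier results of these data known, and 3 pathway genes of the list are not reported here. Named pathway genes are those past the threshold, at most 12 per comparison by size, and those at 0; Rdh5 in KO, Adh5, Rdh11, Ppard, Hic1, and in WT Ncoa2, Ncoa3 and Nrip1, were named after their values were seen. Genes most like a member are the top 5 for Stra6 and the top 3 for others by Pearson correlation of log2(CPM + 1).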

Additional observations from a re-analysis of the deposited data

Results flagged for a closer look

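In the 36 combinations of the 9 genes with the 4 groups, 4 held a library far from the other three of its group by Dixon's criterion, which chance meets in about 1 of 20 groups. Cyp26b1 was at 32.1 CPM in KO somatodendritic replicate 1, with the others at 14.3 to 15.8 CPM. Rara was at 10.8 CPM in WT somatodendritic replicate 4, with the others at 15.2 to 15.7 CPM. Rarb was at 1.04 CPM in WT axonal replicate 3, with the others at 5.38 to 6.0 CPM. Stra6 was at 0.0325 CPM in WT axonal replicate 3, which is 1 read, with the others at 0.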

How the results depend on the processing

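The number of the 8 genes called between compartments was 3 to 5 in WT and 3 to 4 in KO under every alternative, and 0 between genotypes in the somatodendritic compartment. Crabp1, Cyp26b1 and Rarb kept their call and direction between compartments under every alternative and left-out library. Library totals without TMM factors moved the median log2 fold change of all genes from 0.072 to 0.222 in WT and from -0.003 to 0.115 in KO. Beyond the library exceptions given above, Crabp2 passed in WT without TMM factors (adjusted p = 0.0337). It also passed with the stricter filter, 10 counts in each library of some group (0.0358). That filter kept Crabp2 through the WT axonal libraries alone, the group in which it was then called higher, so this pass is no independent support. In KO Dhrs3 passed with default DESeq2 (0.0432) and limma voom (0.0289) and Aldh1a2 with only the 8 libraries compared (0.0481). Also in KO, the Rarg call was lost with no filter (0.0556) or with only those 8 libraries (0.0612), where Rdh5 was lost too (0.0549). The number of all genes called between KO and WT axons was 5 with either DESeq2 setting and 1 with limma voom, with only the 8 libraries compared, or with the replicate block, and 1 to 3 when a library was left out. Default DESeq2 called 1 gene for the difference between compartments. Marker lists past an unadjusted p of 0.05 numbered 9 of 44 on either scale.

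With the replicate block, WT compartments had 3 of the 8 genes called, since Rara did not pass (0.54, adjusted p = 0.0929); WT numbers 1 to 3 correlated between compartments with r of 0.256 to 0.292 and number 4 with 0.083, so same-numbered WT samples were taken to share only a number. Beyond Dhrs3 in KO, the block changed no other call of the 8 genes.

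The direction changed for values that did not pass the test. Rara in KO compartments was at 0.07 without TMM factors, 0.01 with the stricter filter and 0.01 with only the 8 libraries, and from -0.23 to 0.11 when a library was left out, and Rbp4 in WT compartments was at -0.25 with limma voom and from -0.15 to 0.40. Between genotypes in the somatodendritic compartment, leaving out a library gave ranges of -0.15 to 0.03 for Crabp1, -0.30 to 0.55 for Rbp4, -0.39 to 0.12 for Cyp26b1, -0.23 to 0.02 for Rarb, -0.35 to 1.24 for Aldh1a2, fitted at 0.65 with all libraries, and -0.03 to 0.72 for Dhrs3. In axons, described without a test, the ranges that included 0 were -0.61 to 0.18 for Crabp1, -0.46 to 0.27 for Cyp26b1 and -0.38 to 0.11 for Rarb. The cause of these changes was not tested. Rbp4 gave no value with the stricter filter, nor Rbp4, Crabp2 and Stra6 in some fits of only the 8 libraries compared, where they failed the filter. Stra6, Rbp4 and Crabp2 had at most 53 reads in a library, so counting error limits them more than the others.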
